A study of Mus musculus with 4 samples.

Results

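Replication-dependent histone genes were followed across 4 RNA sequencing libraries, 2 labelled as gastric tumours of wild-type mice (WT) and 2 labelled as gastric tumours of Mst4 knockout mice (KO). The genes were taken by symbol, as every row of the deposited table whose name has the old form of the histone clusters HIST1 to HIST4, with 1 row dropped because its name marks a pseudogene. This gave 63 of the 23258 genes in the table, 49 in HIST1, 10 in HIST2, 3 in HIST3 and 1 in HIST4. By histone type they are 6 linker H1 genes and 15 H2A, 17 H2B, 13 H3 and 12 H4 genes. The labels give C57BL/6 mice of both sexes at postnatal week 20 for both groups. The KO animals are described as Mst4F/F UBCcre, that is, with a floxed Mst4 gene and a Cre driven by the ubiquitin C promoter, which is active in most tissues rather than in the stomach alone. How the tumours arose, whether Cre was induced, whether animals were pooled and whether the WT animals carried Cre or floxed alleles is left unsaid in the labels. The sources do not state that replicates were separate animals, so p-values cover only library-to-library spread, and that may be technical.

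Histones package DNA into nucleosomes. The core histones H2A, H2B, H3 and H4 form the particle around which DNA is wrapped, and H1 binds the DNA between particles. The replication-dependent genes lie in clusters and are transcribed mainly in S phase, when new DNA must be packaged. Their messengers are short, have no introns and end in a conserved stem-loop in place of a poly(A) tail. The stem-loop binding protein SLBP attends their processing, translation and decay, and the coactivator NPAT, a substrate of cyclin E and CDK2, drives their transcription at the clusters. Some of these genes also give polyadenylated transcripts, among them HIST1H1C, HIST1H2AC, HIST1H2BD, HIST1H2BK and HIST2H2BE, and these can be made outside S phase. Whether the libraries were made from poly(A)-selected RNA is not given in the sources used here, and a protocol of that kind would recover stem-loop messengers poorly.

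The table names human genes although the labels say mouse: all 23258 row identifiers carry the taxon number of human. Genes are given by these human symbols, and genotypes are those of the library labels. Library totals ran from 18613533 to 30505281 estimated counts. Of 13 gastric gland markers in the table, 11 were below 1 CPM (counts scaled to library size) in every library, and TFF2 was at 0 in all 4. PSCA and ATP4A were the exceptions, at 68.3 to 235 CPM and 4.96 to 11.4 CPM. STK26, the human name of the targeted gene, was at 54.1 and 54.9 CPM in the WT pair and at 9.04 and 7.36 CPM in the KO pair. WT replicate 1 stood apart from the other 3 libraries. Of the 11963 genes that averaged 5 CPM or more, 19.5% differed more than 2-fold between the WT libraries, against 0.334% between the KO libraries and 1.4% between WT replicate 2 and KO replicate 1. Results are therefore given with and without WT replicate 1. Of the other cell type markers, 9 of 9 tested stromal and endothelial genes were lower in KO (median log2 fold change -0.71, and -0.11 without WT replicate 1), as were 4 of 5 tested immune genes (median -0.64, and -0.35 without WT replicate 1). The 10 stromal and endothelial markers in the table summed to 214 and 153 CPM for WT and 126 and 148 CPM for KO, and the 10 immune markers to 54.9 and 88.4 CPM for WT and 106 and 21.1 CPM for KO. CD8A alone was at 11.5 and 64.6 CPM for WT and at 87.9 and 0 CPM for KO, and without CD8A the immune sums were 43.4 and 23.8 CPM for WT and 17.8 and 21.1 CPM for KO. The macrophage marker CD68 was at 13.0 to 34.2 CPM. CSF1R and CD14 of the same list were lower, at 1.37 to 4.19 CPM and 0.418 to 1.66 CPM. LYZ and ITGAM reached at most 0.885 and 0.162 CPM. Of the other markers, PTPRC reached at most 0.493 CPM, CD3D 0.0734 CPM and COL1A2 0.102 CPM in a library, while COL1A1 was at 83.2 to 144 CPM. The part of such cells in the histone results was not tested.

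Histone transcripts were scarce. The 63 genes together took 0.0371% of the counts in WT replicate 1 (95% exact Clopper-Pearson interval 0.0364% to 0.0378%), 0.0289% in WT replicate 2 (0.0281% to 0.0297%), 0.0493% in KO replicate 1 (0.0483% to 0.0503%) and 0.0490% in KO replicate 2 (0.048% to 0.05%). These intervals cover counting error only. Both KO libraries lay above both WT libraries, and the KO libraries had overlapping intervals. In CPM the sums were 385 and 294 in WT (mean 339 ± 64.4, SD, n = 2) and 481 and 479 in KO (479.9 ± 1.83, SD, n = 2), a ratio of 1.42. In these bulk samples fewer cells that make a transcript and less RNA per cell cannot be told apart.

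A few genes held most of this signal, and most of the 63 were close to 0. The highest 5 by mean CPM were HIST1H2BK, HIST1H1C, HIST1H2BD, HIST1H2AC and HIST2H2BF, which together made 70.5% to 73.4% of the histone CPM of a library. The 8 genes listed as having polyadenylated transcripts made 69.2% to 76.9%. Only 24 genes reached a mean of 1 CPM and 8 reached 10 CPM. At the other end, 27 genes never exceeded 10 counts in any library. HIST1H2AD, HIST1H4K, HIST2H3C, HIST2H4A and HIST2H4B were at 0 in all 4 libraries, where 0 counts allow a level of up to 0.0983 CPM for WT replicate 1 and up to 0.161 CPM for KO replicate 1. Many histone genes have near-identical coding regions, so the division of reads between single members is uncertain, and a 0 may mean that reads were assigned to a copy.

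**Figure D1:**
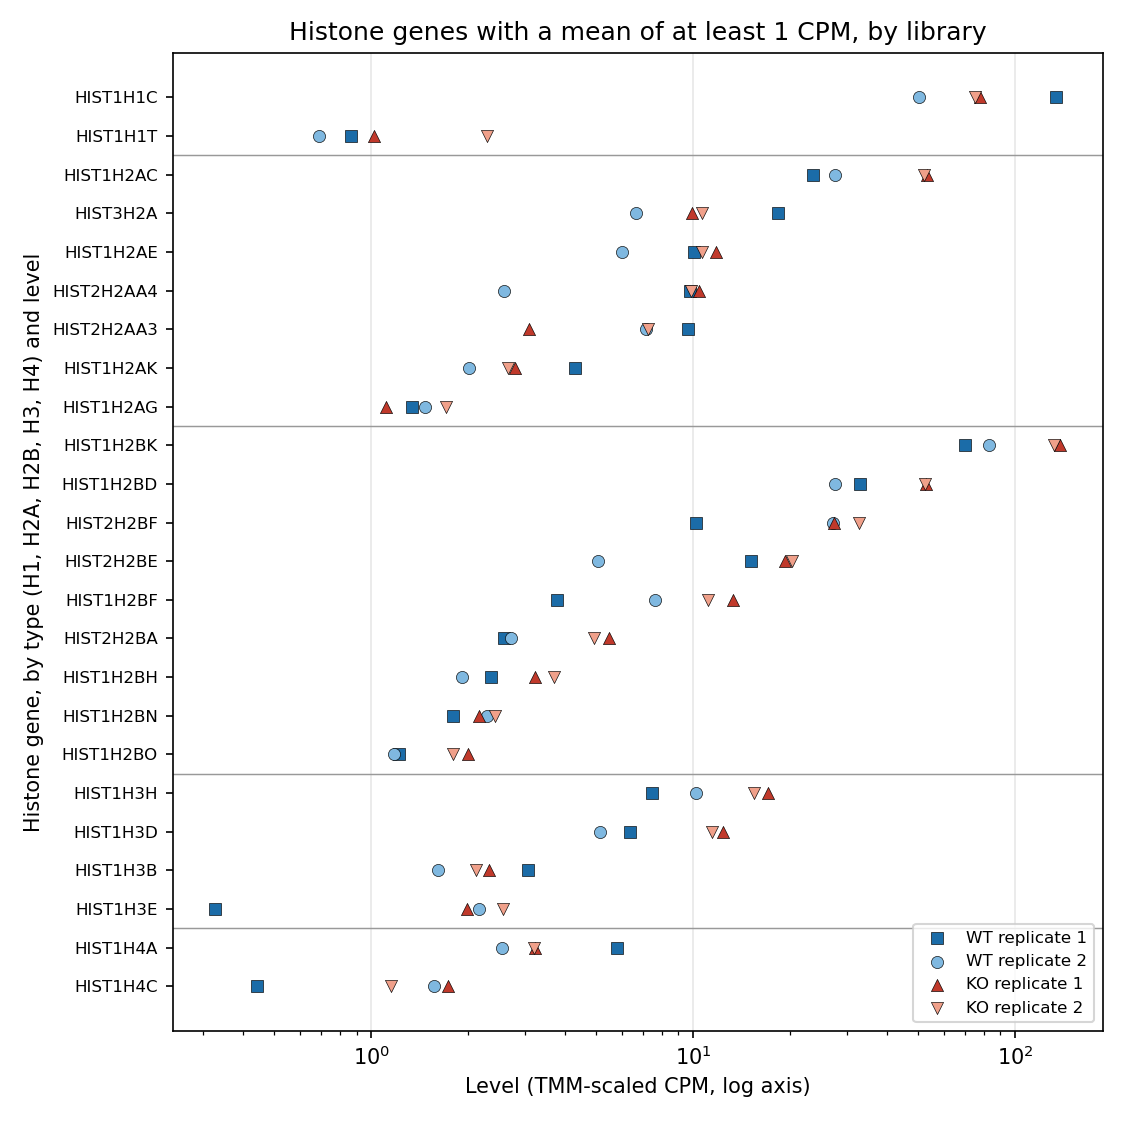
TMM-scaled CPM (log axis) in each of the 4 libraries for the 24 histone genes averaging 1 CPM or more, ordered by histone type and level; squares and circles are WT, triangles are KO. HIST1H2AC, HIST1H2BK, HIST1H2BD, HIST1H3H and HIST1H3D have both KO points to the right of both WT points, whereas for HIST1H1C and HIST3H2A the WT points lie on either side of the KO points.

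Of the 63 genes, 33 passed the filter on low counts and were tested. The edgeR quasi-likelihood test with Benjamini-Hochberg adjustment over 16030 genes called none of them (lowest adjusted p = 0.834), and it called 0% of all genes. DESeq2 called none of the 32 histone genes with an adjusted p, against 0.239% of all genes. The targeted gene STK26 was not called by edgeR either (log2 fold change -2.73, SE 0.26, edgeR adjusted p = 0.834). DESeq2 did call STK26 (DESeq2 adjusted p = 3.03e-11). At unadjusted p under 0.05 there were 6 histone genes by edgeR, all higher in KO, and 6 by DESeq2. Across all genes 0.948% were higher and 3.22% lower at that level in edgeR. Fold changes above 0 were found for 24 of the 33 tested histone genes, against 48.6% of all tested genes, and the median log2 fold change was 0.54, against -0.01 over all genes. The KO libraries were the upper pair for 15 of the 33 (45.5%), against 18.4% of all tested genes, and below them for 2 (6.06%), against 19.1%. These counts describe the genes that passed the filter and not all 63.

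Sums by histone type are given as values, with no test between types. Summed over H2B genes the level was 142 and 161 CPM in the WT pair and 265 and 264 CPM in the KO pair, a ratio of 1.75. The H3 genes summed to 18.6 and 20.4 CPM in the WT pair and 36.0 and 33.7 CPM in the KO pair, a ratio of 1.79. For H2A the sums were 78.7 and 55.9 CPM in the WT pair and 94.5 and 97.0 CPM in the KO pair. In these 3 types the KO libraries lay above the WT libraries without overlap in CPM. On the FPKM scale the H2A sums overlapped, at 75.5 and 42.0 FPKM in the WT pair and 53.2 and 76.8 FPKM in the KO pair. For H1 and H4 the genotypes overlapped on both scales. The H1 genes summed to 137 and 52.0 CPM in the WT pair and 80.5 and 78.9 CPM in the KO pair. The H4 genes summed to 7.97 and 4.39 CPM in the WT pair and 5.17 and 4.98 CPM in the KO pair. WT replicate 1 was the highest library and WT replicate 2 the lowest for both of these types. Within HIST1 the H2A genes alone summed to 40.9 and 39.1 CPM in the WT pair and 70.9 and 69.3 CPM in the KO pair, and the H2B genes of the same cluster to 114 and 125 CPM in the WT pair and 213 and 205 CPM in the KO pair, a ratio of 1.75 for each. In FPKM the HIST1 H2A sums overlapped (20.6 and 16.7 in the WT pair, 18.8 and 33.9 in the KO pair).

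**Figure D2:**
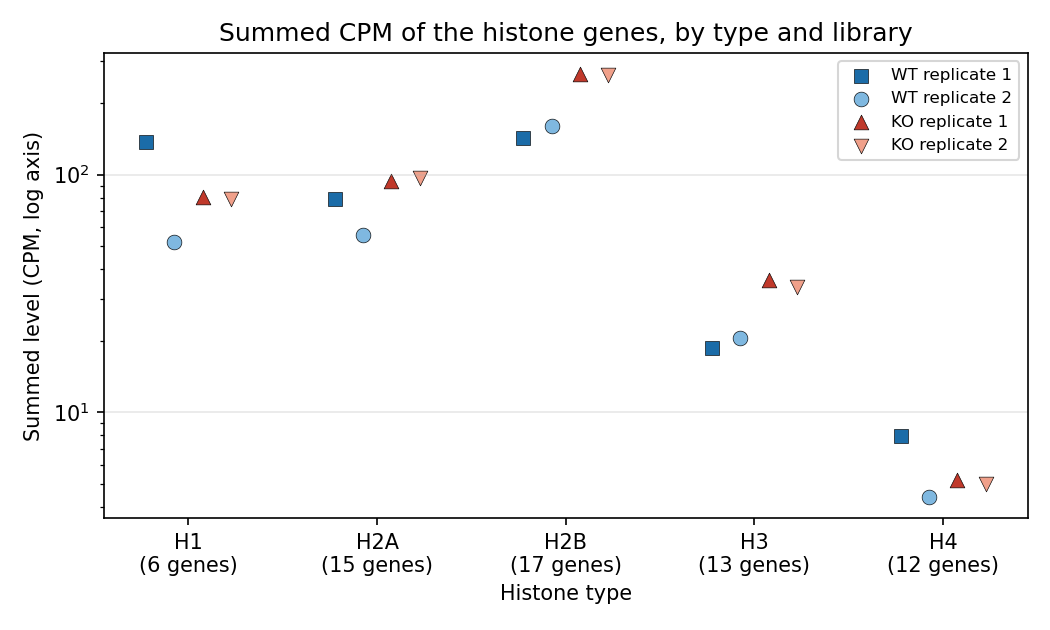
Summed CPM (log axis) of all histone genes of each type in each library, with the number of genes in parentheses. For H2A, H2B and H3 both KO libraries lie above both WT libraries, and for H1 and H4 the KO libraries lie between WT replicate 1 and WT replicate 2.

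Among H2B genes, HIST1H2BK had the highest level of all 63. Its level was 70.1 and 83.0 CPM in the WT pair (76.5 ± 9.15, SD, n = 2), against 138 and 132 CPM in the KO pair (135 ± 4.26, SD, n = 2). Both KO libraries were higher, and the gap was several times the spread within either genotype. Its log2 fold change was 0.82 (SE 0.23, edgeR adjusted p = 0.834), and it was 0.70 (SE 0.16) without WT replicate 1. HIST1H2BD was at 33.0 and 27.6 CPM in the WT pair and at 53.0 and 52.6 CPM in the KO pair. The KO libraries were again higher and close to each other. HIST1H2BD had a log2 fold change of 0.80 (SE 0.24, edgeR adjusted p = 0.834), and of 0.94 (SE 0.18) without WT replicate 1. A fit without WT replicate 1 holds a single WT library and does not cover the spread within WT.

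The HIST2 members of the H2B type differed in which WT library was low. HIST2H2BF was at 10.2 and 27.2 CPM in the WT pair and at 27.5 and 32.7 CPM in the KO pair, so that WT replicate 2 was next to KO replicate 1. Its log2 fold change was 0.69 (SE 0.50) with all libraries and 0.15 (SE 0.18) without WT replicate 1. HIST2H2BE was at 15.1 and 5.07 CPM in the WT pair and at 19.3 and 20.3 CPM in the KO pair, and here WT replicate 2 was the low library. HIST2H2BA, a pseudogene by annotation whose symbol passed the rule, was at 2.59 and 2.71 CPM in the WT pair and at 5.50 and 4.92 CPM in the KO pair. Summed over these 3 genes the level was 27.9 and 35.0 CPM in the WT pair and 52.3 and 58.0 CPM in the KO pair. The remaining H2B genes with at least 1 CPM were HIST1H2BF, at 3.78 and 7.62 CPM in the WT pair and 13.3 and 11.1 CPM in the KO pair, and HIST1H2BH, HIST1H2BN and HIST1H2BO, with log2 fold changes of 0.71, 0.16 and 0.64. HIST1H2BC, which is listed with polyadenylated transcripts, had 17.3 and 2.3 counts in WT and 0 in both KO libraries, and was too low to be tested with all libraries.

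Among H2A genes, HIST1H2AC had the smallest p of the 33 (unadjusted p = 0.00615 by edgeR). Its level was 23.6 and 27.5 CPM in the WT pair (25.6 ± 2.73, SD, n = 2), against 53.1 and 52.0 CPM in the KO pair (52.6 ± 0.829, SD, n = 2), a ratio of 2.06. The genotypes did not overlap on this scale. Its log2 fold change was 1.04 (SE 0.23, edgeR adjusted p = 0.834), and its adjusted p in DESeq2 was 0.184. HIST1H2AE was at 10.1 and 6.03 CPM in the WT pair and at 11.8 and 10.6 CPM in the KO pair, with WT replicate 1 just under the KO libraries. HIST3H2A, the H2A gene of the small HIST3 cluster, was at 18.4 and 6.65 CPM in the WT pair and at 9.92 and 10.6 CPM in the KO pair. The WT libraries enclosed the KO libraries, and the log2 fold change was -0.29 (SE 0.53) with all libraries but 0.63 (SE 0.23) without WT replicate 1. HIST1H2AK was likewise enclosed, at 4.30 and 2.01 CPM in the WT pair and at 2.79 and 2.66 CPM in the KO pair.

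HIST2H2AA3 and HIST2H2AA4 are near-identical neighbouring copies, and the estimated counts divided their reads unevenly. HIST2H2AA3 was at 9.61 and 7.15 CPM in the WT pair and at 3.08 and 7.25 CPM in the KO pair, and HIST2H2AA4 at 9.78 and 2.58 CPM in the WT pair and at 10.5 and 9.87 CPM in the KO pair. The log2 fold changes had opposite signs, -0.70 (SE 0.51) and 0.70 (SE 0.65). Summed over the pair the level was 19.4 and 9.73 CPM in the WT pair and 13.5 and 17.1 CPM in the KO pair. On that sum the genotypes overlapped (14.6 ± 6.83 against 15.3 ± 2.54, SD, n = 2 each).

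The H3 genes were led by HIST1H3H and HIST1H3D. HIST1H3H was at 7.43 and 10.2 CPM in the WT pair and at 17.1 and 15.5 CPM in the KO pair, and its log2 fold change was 0.89 (SE 0.31, edgeR adjusted p = 0.834). HIST1H3D was at 6.36 and 5.13 CPM in the WT pair and at 12.4 and 11.5 CPM in the KO pair, a log2 fold change of 1.05 (SE 0.31, edgeR adjusted p = 0.834). For both genes the lower KO value exceeded the higher WT value. HIST1H3B was at 3.08 and 1.61 CPM in the WT pair and at 2.32 and 2.11 CPM in the KO pair, inside the WT range. HIST1H3E had 0.327 CPM in WT replicate 1 against 1.98 to 2.56 CPM elsewhere. Germ-cell HIST3H3 had 1 count in KO replicate 1 and 0 elsewhere.

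H4 messengers were scarce in the counts although H4 makes up as much of the nucleosome as the other core histones. All 12 H4 genes together reached 4.39 to 7.97 CPM, a scale that does not allow for their short length. In FPKM they summed to 10.1 and 6.51 in the WT pair and 7.55 and 7.18 in the KO pair. The H3 sums were 13.1 and 11.7 FPKM in the WT pair and 18.9 and 19.5 FPKM in the KO pair. Low sums were thus not particular to H4, while the H2A and H2B sums were higher. HIST1H4A was at 5.82 and 2.54 CPM in the WT pair and at 3.23 and 3.20 CPM in the KO pair, and HIST1H4C had 13 and 29 counts in the WT pair and 33 and 22 in the KO pair. HIST1H4I had 38.3 counts in WT replicate 1, 0 in WT replicate 2 and KO replicate 1, and 2.76 in KO replicate 2. HIST4H4, the sole gene of its cluster, had 2.47 counts in KO replicate 2 and 0 elsewhere. In HIST1H4A and HIST1H4C, the 2 H4 genes that were tested, the genotypes overlapped.

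Among linker genes, HIST1H1C carried almost the whole H1 signal. Its level was 134 and 50.1 CPM in the WT pair (92.1 ± 59.4, SD, n = 2), against 77.6 and 75.1 CPM in the KO pair (76.3 ± 1.77, SD, n = 2). WT replicate 1 was 2.68-fold above WT replicate 2, with the KO libraries in between, so the sign of the difference depended on the WT library. The log2 fold change was -0.27 (SE 0.48, edgeR adjusted p = 0.884) with all libraries, 0.61 (SE 0.17, adjusted p = 0.00989) without WT replicate 1 and -0.79 (SE 0.15, adjusted p = 1.49e-06) without WT replicate 2. HIST1H1E was at 0.832 and 0.818 CPM in the WT pair and at 0.432 and 0.577 CPM in the KO pair, with at most 24.5 counts in a library. HIST1H1T, the testis form, was at 0.864 and 0.687 CPM in the WT pair and at 1.02 and 2.28 CPM in the KO pair.

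With a WT library left out, the spread comes from the KO libraries alone, which lie close together, and many genes passed the threshold. Without WT replicate 1 edgeR called 10 of 34 tested histone genes higher in KO (29.4%), against 2.54% of all genes, and 0 lower, against 3.93%. They were HIST1H2AC, HIST1H2AE, HIST1H2BD, HIST1H2BF, HIST1H2BK, HIST1H3D, HIST1H3H, HIST2H2AA4, HIST2H2BE and HIST1H1C. For 9 of the 10 WT replicate 1, which that fit did not use, also lay below both KO libraries, against 51.7% of all genes called higher in that fit, and HIST1H1C was the exception. Without WT replicate 2 edgeR called 10 of 35 higher (28.6%), against 25.2% of all genes, and 6 lower (17.1%), against 26.1%. Those called lower were HIST1H1C, HIST1H2BC, HIST1H4A, HIST1H4I, HIST2H2AA3 and HIST3H2A. Both fits use the same KO libraries and neither covers the spread within WT.

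The fold changes of the leading genes can be set side by side in these fits, which share their KO libraries. HIST1H2AC had a log2 fold change of 0.93 (SE 0.18) without WT replicate 1 and 1.18 (SE 0.18) without WT replicate 2. For HIST1H2BK the values were 0.70 and 0.97, for HIST1H2BD 0.94 and 0.70, for HIST1H3D 1.22 and 0.94, and for HIST1H3H 0.68 and 1.16. These genes were named for a small p over all libraries, which favours genes whose WT libraries lie close. For HIST2H2BE the values were 1.96 (SE 0.22) and 0.41 (SE 0.18), and for HIST2H2BF 0.15 (SE 0.18) and 1.59 (SE 0.19), so these depended on the WT library. Of the 33 tested genes 13 (39.4%) differed more than 2-fold between the WT libraries, against 25.4% of all tested genes, and 4 (12.1%) between the KO libraries, against 3.96%. WT replicate 1 was the higher WT library for 18 of the 33, against 50.6% of all tested genes.

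**Figure D3:**
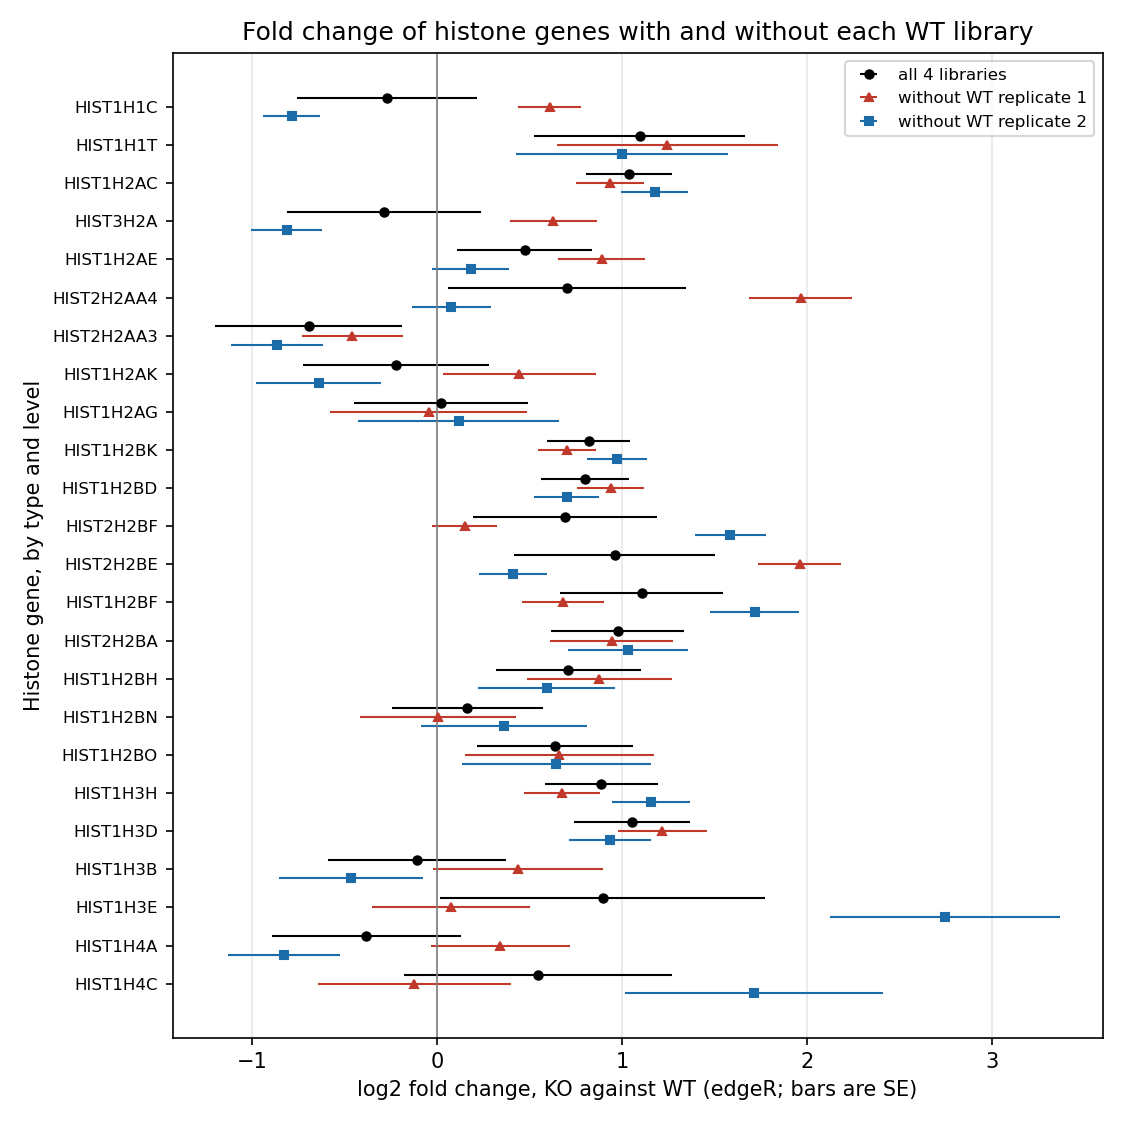
log2 fold change of KO against WT (edgeR, bars are SE) for the tested histone genes averaging 1 CPM or more, with all 4 libraries (black circles), without WT replicate 1 (red triangles) and without WT replicate 2 (blue squares). HIST1H2AC, HIST1H2BK, HIST1H2BD, HIST1H3H and HIST1H3D lie above 0 in all 3 fits, and HIST1H1C lies at 0.61 without WT replicate 1 and at -0.79 without WT replicate 2.

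The second deposited value, read as FPKM, scales each gene by transcript length and so allows levels to be set between genes. On the FPKM scale HIST1H1C was the highest by mean level (169 and 62.6 in the WT pair, 99.4 and 95.5 in the KO pair), followed by HIST1H2BK (49.9, 73.7, 124 and 122) and HIST1H2BD (26.4, 21.9, 45.6 and 46.9). That first place rests on WT replicate 1: HIST1H2BK was higher in each of the other 3 libraries, with a mean of 107 FPKM over them against 85.8 FPKM for HIST1H1C. The next were HIST2H2AA4, HIST2H2AA3, HIST1H2AC and HIST3H2A, with means from 11.9 to 14.9 FPKM and ranges that overlapped, so their order is not resolved. The replication-independent H3 gene H3F3B, which is used throughout the cell cycle, was at 332 to 479.9 FPKM, whereas all 13 replication-dependent H3 genes together summed to 11.7 to 19.5 FPKM.

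Dividing the count by the FPKM gives the transcript length that the deposited values imply for each gene and library. It could be computed for 33 histone genes with at least 0.15 FPKM in every library. HIST1H4C was at 380.5 to 394.9 bases, HIST1H2AG at 499 to 516 bases, and HIST2H2AA3 and HIST2H2AA4 at 538 to 556 bases, the size of a stem-loop messenger. HIST1H1C was at 766 to 805 bases. HIST1H2BK and HIST1H2BD were somewhat longer, with medians of 1125 and 1199 bases, HIST2H2BE had a median of 2433 bases and HIST1H2AC of 2899 bases. HIST1H2BF, HIST2H2BA and HIST2H2BF had medians of 12032, 14147 and 14995 bases, far beyond a coding region of this family.

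The genes were then divided at an implied length of 1000 bases, a limit set after the values were seen. The lengths form no separate classes there, some genes cross the limit between libraries (HIST3H2A had 883 to 1112 bases), and the sums are a description. The 17 genes at or above it summed to 197 and 214 CPM in the WT pair and 365 and 359 CPM in the KO pair. In CPM the KO libraries were the upper pair for 12 of the 17, against 18.4% of all tested genes. The 16 genes below it summed to 183 and 77.7 CPM in the WT pair and 114 and 117 CPM in the KO pair. KO lay above WT in CPM for 3 of the 14 of them that were tested, near the share of all genes. In FPKM the genotypes overlapped for HIST1H2AC, HIST1H2AE and HIST1H2BO of those 12 and for HIST1H2BH of those 3. The long genes made 51.2% of the histone CPM in WT replicate 1 and 72.8% to 75.9% in the other 3 libraries. The short sum is mostly HIST1H1C, the gene with the WT libraries on either side of KO.

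**Figure D4:**
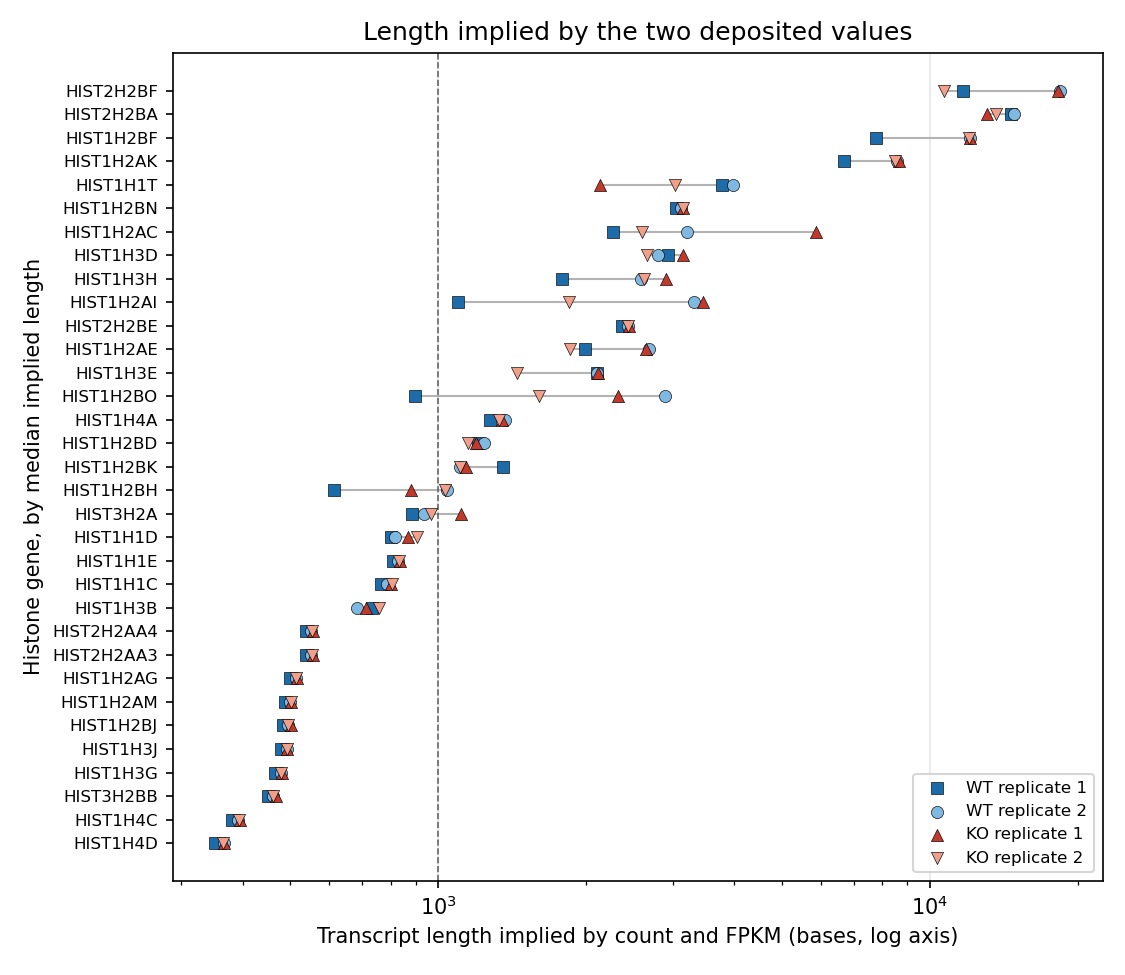
Transcript length implied by the deposited count and FPKM (bases, log axis) for 33 histone genes in each library, ordered by median, with a grey line over the range and a dashed line at 1000 bases. HIST1H4C lies near 393 bases in all libraries, HIST2H2BF between 10672 and 18438 bases, and HIST1H2AC at 5871 bases in KO replicate 1 against 2267 to 3202 bases in the other libraries.

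For some genes the implied length also changed between libraries, so the 2 deposited scales disagree. The largest implied length exceeded the smallest by more than 1.5 times in 8 of the 33 (24.2%), against 8.14% of all genes with such a value. HIST1H2AC had 1014 and 995 counts in the KO libraries but 9.28 and 20.5 FPKM, and 10.1 and 8.45 FPKM in WT, so its genotypes overlapped in FPKM and not in CPM. HIST1H2AE, HIST1H2BH and HIST1H2BO overlapped in FPKM likewise. In FPKM the KO libraries were the upper pair for 11 of the 33 tested histone genes (33.3%), against 22.2% of all tested genes, where the CPM shares were 45.5% and 18.4%. HIST1H2BK, HIST1H2BD, HIST1H3D and HIST1H3H were among these 11.

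None of the genes listed for making, processing and storing histone messengers and proteins was called with all libraries, by edgeR or by DESeq2. Of 25 factors for histone transcription and 3-prime processing 17 were higher and 8 lower, with a median log2 fold change of 0.04. SLBP was at 80.5 and 76.0 CPM in the WT pair and at 62.5 and 58.5 CPM in the KO pair, a log2 fold change of -0.37 (SE 0.22, edgeR adjusted p = 0.834), with both KO libraries lower. NPAT was at 45.6 and 59.1 CPM in the WT pair and at 63.6 and 53.5 CPM in the KO pair, with overlap. CPSF3, the endonuclease that cuts histone and other pre-messengers, was at 46.4 and 84.1 CPM in the WT pair and at 98.2 and 88.6 CPM in the KO pair. LSM11, a U7 particle protein, had a log2 fold change of -0.39 (SE 0.27) and the cleavage factor CSTF2T of 0.35 (SE 0.27). None of the 25 was called without WT replicate 1, against 6.46% of all genes.

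Among decay factors and among chaperones 1 gene each was called without WT replicate 1, which is near the share of all genes (6.46% in either direction). Of 14 genes for histone messenger decay 6 were higher and 8 lower (median -0.03), and LSM1, of the ring that binds decaying messengers, was called lower in that fit by 0.61 on the log2 scale (SE 0.17, edgeR adjusted p = 0.00988). LSM1 was at 23.2 and 39.2 CPM in the WT pair and at 24.6 and 26.6 CPM in the KO pair, so WT replicate 1 did not share the difference. The log2 fold changes of EXOSC10, LSM2 and TUT4 were 0.25, 0.23 and 0.16 with all libraries. Of 23 histone chaperone genes 16 were higher and 7 lower (median 0.15). SPTY2D1, a histone-binding chaperone, was at 40.3 and 38.7 CPM in the WT pair and at 27.7 and 23.3 CPM in the KO pair, with a log2 fold change of -0.63 (SE 0.24) and of -0.60 (SE 0.17, edgeR adjusted p = 0.0124) without WT replicate 1. SUPT16H, a subunit of the FACT complex, was at 177 and 251 CPM in the WT pair and at 315 and 288 CPM in the KO pair. The importin IPO4 and the CENPA chaperone HJURP gave 0.74 (SE 0.47) and -0.57 (SE 0.38) on the log2 scale.

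Replication-independent variants take the place of these histones outside S phase. Of 10 tested variants 2 were higher and 8 lower in KO, with a median log2 fold change of -0.29, and of 0.08 without WT replicate 1. The tested linker variants were highest in WT replicate 1, as HIST1H1C was. H1F0, a linker histone of resting cells, reached 285 CPM in WT replicate 1 against 59.4 CPM for WT replicate 2 and 64.0 and 62.3 CPM for the KO pair. H1FX reached 449 CPM in the former and 139, 155 and 204 CPM in the latter 3 libraries. The same order for H2AFJ was 109 CPM against 30.5, 39.9 and 49.2 CPM. H2AFZ, which marks promoters, was at 294 and 421 CPM in the WT pair and at 277 and 259 CPM in the KO pair, and its relative H2AFV at 208 and 250.5 CPM in the WT pair and at 189 and 172 CPM in the KO pair. Without WT replicate 1 the log2 fold change was -0.65 (SE 0.14) for H2AFZ, -0.47 (SE 0.14) for H2AFV and 0.55 (SE 0.18) for H2AFJ. With all libraries the values were -0.41 (SE 0.27), -0.35 (SE 0.23) and -0.65 (SE 0.61), and neither edgeR nor DESeq2 called these genes with all libraries. Without WT replicate 1, changes of the size seen for HIST1H1C (0.61, SE 0.17) were thus not particular to the replication-dependent genes.

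S-phase genes were listed as a reference for proliferation, and the difference between lists was not tested. Of 29 genes of DNA replication and proliferation 19 were higher and 10 lower, with a median log2 fold change of 0.10, and of -0.03 without WT replicate 1. With all libraries edgeR called 0 of the 29, against 0% of all genes. PCNA, the replication clamp, was at 176 and 244 CPM in the WT pair and at 238 and 224 CPM in the KO pair, and MKI67 at 357 and 539 CPM in the WT pair and at 578 and 539 CPM in the KO pair. WT replicate 2 and the KO libraries were close to each other for both genes. The nucleotide salvage gene TK1 was at 208 and 131 CPM in the WT pair and at 87.1 and 108 CPM in the KO pair (log2 fold change -0.80, SE 0.31), and the licensing factor CDT1 had 251 CPM in WT replicate 1 against 57.8 to 75.4 CPM elsewhere. CDC45, a part of the replicative helicase, gave 0.34 (SE 0.26) on the log2 scale.

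**Figure D5:**
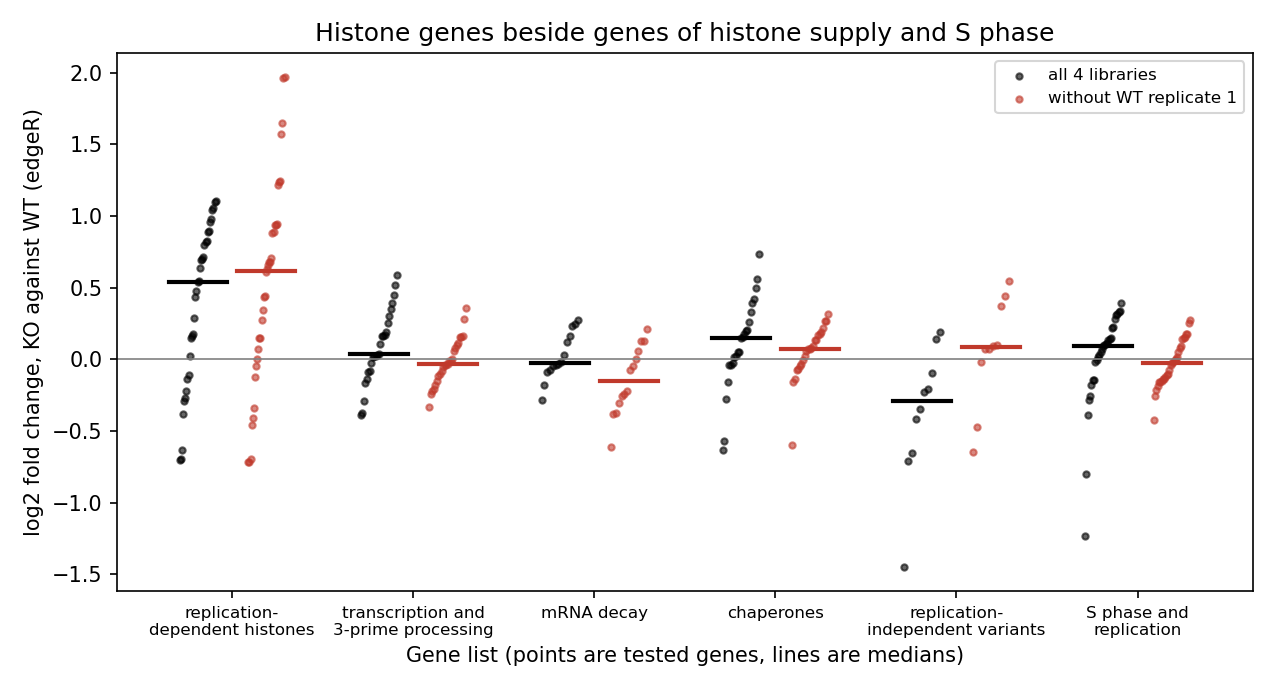
log2 fold change of KO against WT (edgeR) for the tested replication-dependent histone genes and for 5 lists of related genes, with all 4 libraries (black) and without WT replicate 1 (red); points are genes and lines are medians. The histone genes have medians of 0.54 and 0.62, and the S-phase genes of 0.10 and -0.03.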

How the data were processed

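RNA sequencing values of 4 libraries were read from a table the authors deposited, with an estimated count and a second value per gene and library. HISAT2, Cufflinks and RSEM and the mouse build GRCm38.p5 are named, per the submitters' processing notes, without versions or roles. The sources used here give no annotation, filter or strand setting. The deposited estimated counts are not whole for most genes (18.8% to 23.7% lie within 0.005 of a whole number). The authors give no name for the deposited second value, which was read as FPKM, because its sums differ between libraries (441772 to 452971). None of the 63 histone gene numbers is in the mouse tables used here, so no positions or sequences are given.

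Counts were rounded, filtered with filterByExpr, scaled by TMM (factors 0.966 to 1.03) and compared between genotypes, with no other term, by the edgeR 4.0.16 quasi-likelihood test (R 4.3.3). A call is an adjusted p under 0.05. The fit was tested on simulated data. SEs were taken as the size of the log2 fold change divided by the root of the F statistic. CPM uses TMM-scaled totals of the tested genes, except that the limit for 0 counts is 3 counts over the library total. Implied length is the count times a constant over FPKM and library total. Python 3.11.15 was used for sums and figures. The alternatives tried were other scalings (RLE, upper quartile), other filters (none, or 5 CPM in 2 libraries), DESeq2 1.42.0, limma-voom, limma-trend (limma 3.58.1) on log2(FPKM + 1) and log2(FPKM + 0.1) where FPKM averaged 1 or more, leaving out single libraries, the replicate number as a block, and the median without near-identical copies.

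The histone genes and all lists were chosen with earlier results of these data known. Genes named were the 3 highest of each histone type by mean CPM, up to 5 in each direction by smallest p among those with a mean of at least 1 CPM, the 4 with the smallest p of each pathway list, SLBP, NPAT and STK26. The values of 1 gene that this rule names are not reported here. The other genes named, among them HIST2H2BE, HIST2H2BA, HIST1H2BF, HIST2H2AA4, HIST1H3E, HIST1H2BC, H2AFJ, H3F3B, PCNA and MKI67, were chosen after their values were seen.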

Additional observations from a re-analysis of the deposited data

How the results depend on the processing

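No alternative with all 4 libraries called a histone gene. Over all genes DESeq2 called 39 and the fit with the replicate number as a block 10 (0 histone genes). A block with crossed numbers, added after the data were seen, called 4. Same-numbered libraries deviated with a correlation of -0.18 over 16030 genes. With 2 libraries per genotype and WT replicate 1 standing apart, that value cannot decide whether the numbers pair libraries. With each library left out in turn the calls ranged from 0 to 8702 over all genes and from 0 to 16 among histone genes. Both counts were 0 without either KO library. The median log2 fold change of the tested histone genes was 0.79 with a filter of 5 CPM in 2 libraries, which left 14 genes, and ranged from 0.36 to 0.62 with a library left out; it moved by less than the spread between libraries (0.14) under the other alternatives. Signs turned without WT replicate 1 for HIST1H1C (range over left-out libraries -0.79 to 0.61), HIST1H2AK (-0.64 to 0.44), HIST1H3B (-0.47 to 0.44), HIST1H4A (-0.83 to 0.34), HIST1H4C (-0.12 to 1.72) and HIST3H2A (-0.81 to 0.63), and for HIST1H3B also with limma-trend on log2(FPKM + 0.1), at 0.0054. The cause was not tested. Counts too low for the filter left 30 of the 63 histone genes untested.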

Other observations

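The row left out by its pseudogene symbol, HIST2H3PS2, had 59.4 and 53.3 counts in WT and 63.1 and 78.4 counts in KO, whereas the HIST2 cluster's H3 genes that were kept, HIST2H3C and HIST2H3D, had at most 2.34 counts in a library.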
